A study of Mus musculus with 7 samples.

Results

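Regulatory T cells (Tregs) that settle in muscle, fat, skin and other tissues carry a repair program that differs from the state of the resting Tregs of lymphoid organs. Here 7 genes of that program, Areg, Penk, Il1rl1, Klrg1, Batf, Nfil3 and Pparg, were examined in Tregs of the spleen of aged and young mice. They were chosen by symbol, and each symbol matched 1 row among the 25469 genes of the deposited series table. The samples, called Tregs here, were splenic CD4+CD25+ cells of male wild-type C57BL/6 mice, isolated with magnetic beads, with 3 biological replicates at 18 months (aged) and 4 at 8 weeks by the sample labels (young). The study's text gives a slightly higher age for the young mice than the labels do. The mice carried no transgene and received no treatment by the labels, and the labels do not say whether a replicate was 1 mouse or a pool. RNA was amplified as full-length cDNA with a SMART-Seq kit, which adds no molecular identifiers, and reads were counted per gene.

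Tissue Tregs read injury through ST2, the receptor for interleukin-33 (IL-33), a cytokine released by damaged cells, and ST2 is the product of Il1rl1. They answer with secreted growth factors such as amphiregulin (Areg), a ligand of the epidermal growth factor (EGF) receptor, and with enkephalin peptides cut from proenkephalin (Penk). BATF is a transcription factor that opens the program in precursors in the spleen and lymph nodes, NFIL3 marks those precursors, and PPARG drives the last steps in tissue, above all in fat. KLRG1 is an inhibitory receptor on the surface of the more differentiated precursors and of tissue Tregs.

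In aged Tregs, Penk, Areg, Batf and Il1rl1 were higher, and Pparg, Nfil3 and Klrg1 did not pass the test. Mean levels, in gene counts scaled to library size with TMM factors (CPM), were 3.27-fold higher in aged than in young Tregs for Penk, 4.21-fold higher for Areg, 2.0-fold higher for Batf and 1.57-fold higher for Il1rl1. Thus 4 of the 7 genes were called higher and 0 lower with edgeR's quasi-likelihood test at a Benjamini-Hochberg adjusted p-value under 0.05. At an unadjusted p under 0.05, 5 were higher and 1, Pparg, was lower, and DESeq2 called 4 higher and 0 lower. Over all 13904 genes tested, edgeR called 9.8% higher, 6.94% lower and 16.7% in either direction, and at the unadjusted threshold 17.6% were higher, 15.1% lower and 32.7% either. The median log2 fold change of the 7 genes was 0.65, and that of all genes tested was 0.02, with 52.0% of them positive.

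The isolates were checked before the genes were compared. Gene counts numbered 10734234 to 13649310 per library, so that 3 counts, taken as the limit of detection for counting error only, were 0.22 to 0.279 CPM. Foxp3, the lineage factor of Tregs, stood at 516 ± 93.3 CPM in aged (SD, n = 3) against 446 ± 61.8 CPM in young libraries (SD, n = 4). Cd4 stood at 441 ± 6.34 and 545 ± 62.1 CPM, and Il2ra, which encodes CD25, at 380 ± 87.0 and 579 ± 94.3 CPM. None of the 3 passed the edgeR test, with adjusted p of 0.409, 0.117 and 0.0589. Markers of other cells were also read. Aged replicate 1 stood apart, with summed neutrophil markers of 5300 CPM against 671 to 1896 CPM in the other aged and 306 to 990 CPM in the young libraries. Mitochondrial genes took 10.7% of its counts, against 5.08% and 5.54% in the other aged libraries and 2.63% to 3.23% in the young ones. In bulk libraries such as these, fewer cells of a type and less RNA per cell cannot be told apart.

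The bases upstream of the annotated start sites of these genes are shown first, because they were searched for motifs of the factors of the program and their partners. The RefSeq promoter table (GRCm38.p6) gave entries for 5 of the 7 genes, and Penk and Klrg1 had no entry. Bases that overlap an annotated exon were left out. The 4 windows of the called genes are printed 5′ to 3′ on the strand of the gene (all on the plus strand), at chr5:91139349-91139598 for Areg, chr1:40429320-40429569 and chr1:40439379-40439626 for the first and the second start site of Il1rl1, and chr12:85686470-85686668 for Batf. Capitals mark motif matches.
Areg: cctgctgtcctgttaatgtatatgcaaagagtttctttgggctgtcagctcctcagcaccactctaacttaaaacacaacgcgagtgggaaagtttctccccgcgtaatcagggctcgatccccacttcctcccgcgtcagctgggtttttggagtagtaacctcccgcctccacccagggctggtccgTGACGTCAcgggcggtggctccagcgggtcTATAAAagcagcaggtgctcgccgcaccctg
Il1rl1, first start site: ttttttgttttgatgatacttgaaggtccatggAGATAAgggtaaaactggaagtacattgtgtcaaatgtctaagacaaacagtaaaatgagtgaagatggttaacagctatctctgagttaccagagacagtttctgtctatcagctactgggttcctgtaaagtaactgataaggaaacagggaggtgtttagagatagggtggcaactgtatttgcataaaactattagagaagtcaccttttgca
Il1rl1, second start site: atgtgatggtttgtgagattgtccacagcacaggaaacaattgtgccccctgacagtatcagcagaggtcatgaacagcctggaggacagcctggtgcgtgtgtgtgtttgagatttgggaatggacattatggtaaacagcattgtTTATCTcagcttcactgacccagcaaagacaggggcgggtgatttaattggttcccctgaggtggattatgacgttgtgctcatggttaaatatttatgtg
Batf: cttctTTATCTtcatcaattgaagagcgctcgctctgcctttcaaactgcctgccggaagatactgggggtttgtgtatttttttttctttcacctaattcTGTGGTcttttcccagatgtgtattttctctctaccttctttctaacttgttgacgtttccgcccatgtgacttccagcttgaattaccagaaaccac

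Both strands were searched for 9 motifs, those of AP-1, which BATF binds with JUN proteins, of the cyclic AMP response element (CRE), NFIL3, GATA, IRF, RUNX, NF-kB and PPAR factors, and the TATA box, and no match overlapped another. Positions were counted back from the RefSeq start site. The Areg window held the CRE (TGACGTCA) at 61 to 54 bases and the TATA box, spelled as in the capitals nearest its end, at 31 to 26 bases before the start. Of all 32851 promoter windows of 250 bases, 1.55% and 12.4% held these motifs. Each Il1rl1 window held 1 GATA match (AGATAA), at 217 to 212 bases before the first start and, on the other strand, at 103 to 98 bases before the second. A GATA match lay in 9.99% and 9.93% of all windows of those lengths. The Batf window held the GATA motif on the other strand at 245 to 240 bases and the RUNX motif, the second of its runs of capitals, at 149 to 144 bases, motifs found in 8.37% and 11.5% of windows of its length. The 3 windows of Pparg and the window of Nfil3 held none of the motifs searched. In the windows of the 5 genes there was no match to the AP-1 motif (TGANTCA), which 6.75% of windows of 250 bases held, to the NFIL3 motif (TTANGTAA), which 2.06% held, or to the IRF, NF-kB and PPAR motifs. These are matches of letters and not measured binding.

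The secreted products were taken first. Areg (ENSMUSG00000029378, GRCm38 chr5:91139599-91148432, plus strand) encodes amphiregulin, which is made as a membrane precursor and shed. It stood at 6.03, 3.93 and 4.21 CPM in the aged replicates (1, 2 and 3 in order) and at 1.05, 2.17, 0.474 and 0.788 CPM in young replicates 1 to 4. Every aged library was above every young library, with 39 to 69 counts against 6 to 31. The mean was 4.72 ± 1.14 CPM in aged (SD, n = 3) against 1.12 ± 0.739 CPM in young Tregs (SD, n = 4). The log2 fold change was 2.05 (SE 0.444, 95% interval 1.04 to 3.07), with an adjusted p of 0.0176 in edgeR. The call was lost without young replicate 1 (adjusted p = 0.0516) or young replicate 4 (adjusted p = 0.0545), with log2 fold changes of 2.03 and 1.91. Young Tregs varied among themselves by a coefficient of variation of 66.0%, above the 25.8% that counting error alone gives at these counts.

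Penk (ENSMUSG00000045573, chr4:4133531-4138819, minus strand) encodes the precursor of Met- and Leu-enkephalin, peptides that act on opioid receptors. It stood at 90.7, 213 and 181 CPM in the aged replicates, in order, and at 51.3, 49.8, 55.6 and 40.7 CPM in the young replicates. All aged libraries were higher than all young ones, and aged replicate 1 lay nearest to them. The mean of the aged libraries was 161.5 ± 63.5 CPM (SD, n = 3) and that of the young 49.3 ± 6.26 CPM (SD, n = 4), and the log2 fold change was 1.71 (SE 0.259, 95% interval 1.12 to 2.30, edgeR adjusted p = 0.00435). Leaving out each library in turn gave 1.46 to 1.99, and the call held in 7 of 7 such fits. The higher end was the fit without aged replicate 1. The coefficient of variation among aged libraries was 39.3%, against a counting error of 2.43%. The gene shares 14.3% of its exon length with A830012C17Rik. Reads that counting assigned to both genes were not used, so the overlap can only take reads from the count of Penk.

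Of the receptors, Il1rl1 (ENSMUSG00000026069, chr1:40429570-40465415, plus strand) passed the test narrowly. It stood at 33.3, 32.5 and 23.0 CPM in the aged replicates, in order, and at 21.6, 17.5, 22.03 and 14.6 CPM in the young replicates. The groups did not overlap, but aged replicate 3 lay just above the highest young libraries. The mean of the aged libraries was 29.6 ± 5.72 CPM (SD, n = 3) and that of the young 18.9 ± 3.55 CPM (SD, n = 4), and the log2 fold change was 0.65 (SE 0.189, 95% interval 0.22 to 1.08, edgeR adjusted p = 0.0498). The estimate kept its direction in all 18 alternatives, at 0.53 to 0.80, but passed the threshold in only 7 of them. Of the fits with 1 library left out, only the one without aged replicate 3 passed (adjusted p = 0.0387), and the others gave adjusted p of 0.0685 to 0.121. The counts do not separate the membrane receptor from the soluble decoy form of ST2, which the same gene encodes.

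Klrg1 (ENSMUSG00000030114, chr6:122270596-122282882, minus strand), whose product binds cadherins, did not pass the test. It stood at 34.5, 29.8 and 36.8 CPM in the aged replicates, in order, and at 38.6, 44.6, 33.4 and 23.4 CPM in the young replicates. The aged values lay inside the range of the young ones. The mean of the aged libraries was 33.7 ± 3.55 CPM (SD, n = 3) and that of the young 34.99 ± 8.99 CPM (SD, n = 4), and the log2 fold change was -0.05 (SE 0.204, edgeR adjusted p = 0.888). The 95% interval of the log2 fold change ran from -0.52 to 0.41.

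Among the transcription factors, Batf (ENSMUSG00000034266, chr12:85686669-85709087, plus strand) had the smallest adjusted p of the 7 genes in the edgeR fit reported. With DESeq2 that of Penk was smaller (adjusted p = 9.6e-10, against 3.0e-07 for Batf). It stood at 79.8, 94.4 and 105.3 CPM in the aged replicates, in order, and at 42.3, 58.5, 44.0 and 41.9 CPM in the young replicates. All aged libraries were above all young ones, and young replicate 2 was the highest of the young. The mean of the aged libraries was 93.1 ± 12.8 CPM (SD, n = 3) and that of the young 46.7 ± 7.95 CPM (SD, n = 4), and the log2 fold change was 1.00 (SE 0.147, 95% interval 0.66 to 1.33, edgeR adjusted p = 0.00397). The call held in 7 of 7 fits with 1 library left out, at 0.90 to 1.12.

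Nfil3 (ENSMUSG00000056749, chr13:52967209-52981073, minus strand) encodes a basic leucine zipper repressor that is also part of the circadian clock. It stood at 21.1, 19.0 and 27.0 CPM in the aged replicates, in order, and at 13.9, 21.1, 13.9 and 13.6 CPM in the young replicates. Young replicate 2 lay within the aged range, and the other young libraries lay below it. The mean of the aged libraries was 22.4 ± 4.17 CPM (SD, n = 3) and that of the young 15.6 ± 3.65 CPM (SD, n = 4), and the log2 fold change was 0.52 (SE 0.199, 95% interval 0.06 to 0.97), which did not pass (edgeR adjusted p = 0.110). Without young replicate 2 it was 0.70 and passed, with an adjusted p of 0.0266.

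Pparg (ENSMUSG00000000440, chr6:115360951-115490399, plus strand) encodes a nuclear receptor that binds fatty acids and pairs with RXR. It stood at 1.84, 3.12 and 3.18 CPM in the aged replicates, in order, and at 4.28, 4.56, 4.42 and 4.44 CPM in the young replicates, from 21 to 34 and 49 to 65 counts. All aged libraries were below all young ones, and aged replicate 1 was the lowest. The mean of the aged libraries was 2.71 ± 0.761 CPM (SD, n = 3) and that of the young 4.43 ± 0.112 CPM (SD, n = 4). The log2 fold change of -0.71 (SE 0.239, 95% interval -1.25 to -0.16) did not pass (edgeR adjusted p = 0.0766). It was -0.82 and passed, with an adjusted p of 0.0359, once trends with GC content and exon length were removed from each library. The coefficient of variation of the young libraries was 2.53%, less than the 13.1% of counting error, so that their closeness is not a measure of precision.

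**Figure D1:**
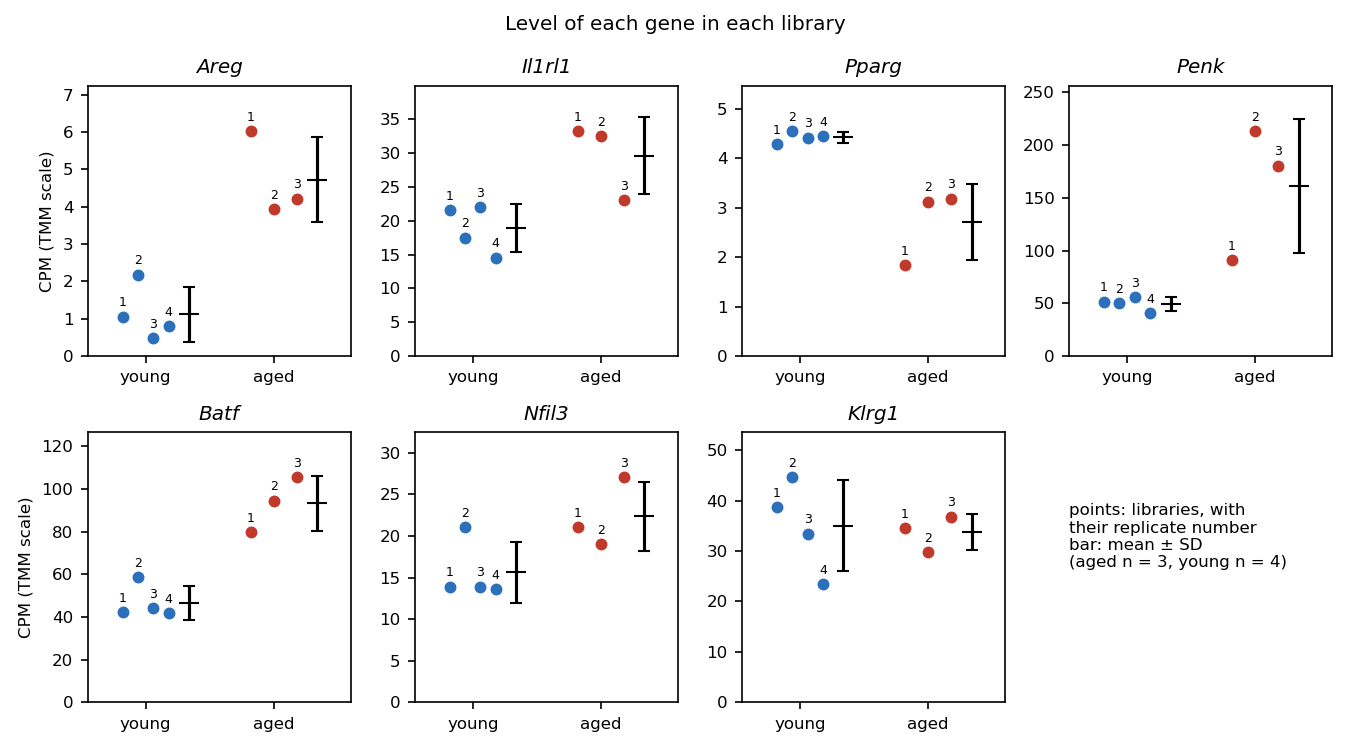
Level of each of the 7 genes in each library, in CPM on the TMM scale on a linear axis from 0. Points are libraries marked with their replicate number (blue, young; red, aged) and bars are mean ± SD (aged n = 3, young n = 4); aged points lie above young points for Areg, Penk, Batf and Il1rl1, below them for Pparg, and overlap them for Klrg1 and Nfil3.

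Ages did not overlap in 5 of the 7 genes, 4 higher and 1 lower in aged Tregs. Of all genes tested, 29.9% did not overlap, 15.5% higher and 14.4% lower in aged libraries. For each of the 5, the two-sided exact permutation test on log2 CPM gave p = 0.0571, which is the smallest that 3 against 4 libraries allow. The same exact permutation test gave p = 0.171 for Nfil3 and p = 0.914 for Klrg1. With a log2 fold change of 1 or more required as well, 2 of the 7 genes remained, Areg and Penk, and 5.44% of all genes tested were called higher by that rule. The fitted change of Batf lay just under that limit.

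**Figure D2:**
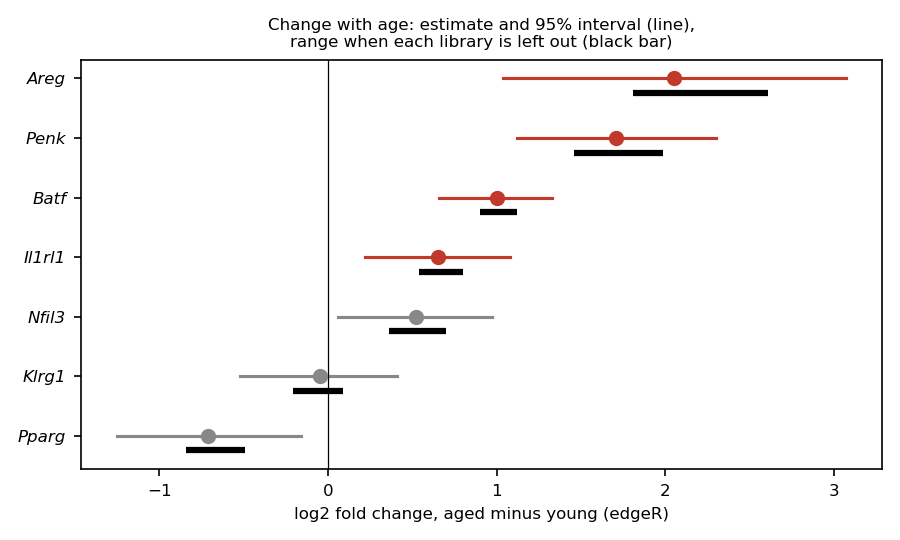
Log2 fold change of each gene, aged minus young, with its 95% interval in edgeR (coloured line; red, adjusted p under 0.05; grey, not called), and the range of the estimate when each library is left out in turn (black bar). The bars of Areg, Penk, Batf, Il1rl1 and Nfil3 lie above 0, that of Pparg below 0, and that of Klrg1 spans 0.

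The libraries did not move together across the 7 genes. Aged replicate 1, the library with the highest neutrophil and mitochondrial share, was the highest aged library for Areg and Il1rl1 and the lowest for Penk, Batf and Pparg. Without it, log2 fold changes were 1.83 for Areg, 1.99 for Penk, 1.09 for Batf, 0.55 for Il1rl1, 0.56 for Nfil3, -0.07 for Klrg1 and -0.49 for Pparg. In that fit 3 of the 7 genes were called, and Il1rl1 was the one lost (adjusted p = 0.103). Young replicate 2 was the highest young library for Areg, Batf, Nfil3, Klrg1 and Pparg. It also had the highest summed markers of Tregs (3799 CPM, against 2339 to 3034 in the other young libraries), of CD4 T cells (1627 CPM, against 1265 to 1299) and of plasma cells (1841 CPM, against 228 to 408). The part of these markers in the values of the 7 genes was not tested.

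Levels were compared between genes per kilobase of exon. The length was that of all annotated exons of a gene merged, 6894 bases for Il1rl1 and 1215 to 2953 bases for the others. The order depends on these lengths, which pool the transcript forms of a gene. In young Tregs the order was Batf at 33.2 ± 5.66 CPM per kilobase (SD, n = 4), Penk at 30.2 ± 3.83, Klrg1 at 24.8 ± 6.36, Nfil3 at 7.71 ± 1.80, Il1rl1 at 2.75 ± 0.515, Pparg at 1.499 ± 0.0379 and Areg at 0.923 ± 0.609. The libraries of Batf and Penk overlapped, as did those of Penk and Klrg1 and those of Pparg and Areg. In aged Tregs the order was Penk at 98.9 ± 38.9 CPM per kilobase (SD, n = 3), Batf at 66.2 ± 9.10, Klrg1 at 23.8 ± 2.51, Nfil3 at 11.1 ± 2.06, Il1rl1 at 4.30 ± 0.830, Areg at 3.89 ± 0.938 and Pparg at 0.919 ± 0.258. The libraries of Penk and Batf overlapped, as did those of Il1rl1 and Areg, and the other neighbours did not. Areg was below Pparg in young replicates 1, 3 and 4, above it in young replicate 2, and above it in every aged library.

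Because an isolate holds cells other than Tregs, the 7 genes were also given per 100 Foxp3 reads. On this scale the median log2 difference of all genes was -0.19, aged minus young, and each difference below is to be read against that shift. The log2 differences are between means of log2 ratios with 0.5 added to each count, and the ratios themselves are printed without it. Penk stood at 14.6, 44.6 and 40.4 per 100 Foxp3 reads in the aged replicates, in order, and at 10.8, 9.60, 14.1 and 10.3 in the young replicates, a log2 difference of 1.43. Aged replicate 1 was barely above the highest young library. Areg stood at 0.911 ± 0.0787 (SD, n = 3) and 0.240 ± 0.127 (SD, n = 4), a log2 difference of 2.02, and Batf at 18.7 ± 5.44 and 10.5 ± 1.12, a log2 difference of 0.80. Pparg stood at 0.553 ± 0.226 and 1.00 ± 0.136, a log2 difference of -0.94. In these 4 genes the ages did not overlap (two-sided exact permutation p = 0.0571 each, the smallest possible). Of all genes tested, 25.3% did not overlap on this scale, 6.62% higher and 18.7% lower.

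Il1rl1 overlapped between ages per Foxp3 read. It stood at 5.35, 6.80 and 5.15 per 100 Foxp3 reads in aged and at 4.52, 3.38, 5.60 and 3.68 in young replicates, a log2 difference of 0.44 (exact permutation p = 0.171). Nfil3 and Klrg1 overlapped as well, with log2 differences of 0.32 and -0.22 (exact permutation p = 0.40 for each). Per Cd4 read, where the median of all genes was 0.31, Il1rl1, Areg, Penk, Batf and Nfil3 were higher without overlap, and Pparg overlapped (log2 difference -0.44). Of all genes tested, 34.2% were higher and 3.15% lower without overlap on the Cd4 scale. Per read of the summed Treg markers, with a median of -0.11, Areg, Penk, Batf and Nfil3 were higher and Pparg lower without overlap, and Il1rl1 overlapped. On that scale 8.41% of all genes tested were higher and 10.8% lower without overlap.

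**Figure D3:**
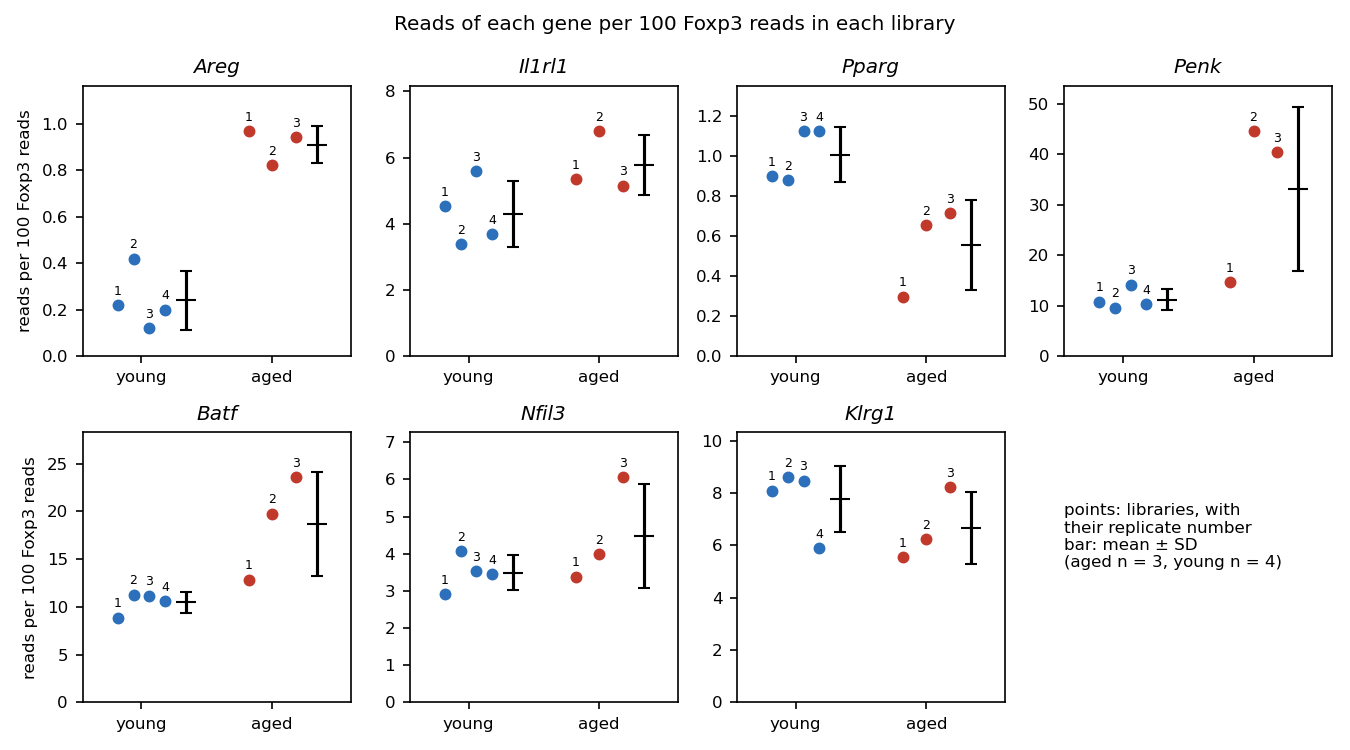
Reads of each gene per 100 Foxp3 reads in each library, on a linear axis from 0. Points are libraries marked with their replicate number (blue, young; red, aged) and bars are mean ± SD (aged n = 3, young n = 4); Areg, Penk and Batf are higher and Pparg is lower in all aged libraries, and aged replicate 1 of Penk lies next to the young libraries.

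Other genes of tissue Tregs were read from the same fit, and their counts are to be read against those of all genes tested (9.8% higher and 6.94% lower in edgeR, 17.6% and 15.1% at an unadjusted p under 0.05). Of 7 other transcription factors of tissue Tregs, 3 were higher and 0 lower in edgeR (4 and 0 in DESeq2 and at an unadjusted p under 0.05), with a median log2 fold change of 0.77. Maf, which drives IL-10 in T cells, rose from a young mean of 60.3 ± 7.33 CPM (SD, n = 4) to an aged mean of 131 ± 15.7 CPM (SD, n = 3; log2 fold change 1.12, edgeR adjusted p = 0.00131). Bhlhe40 (log2 fold change 1.25, adjusted p = 0.0180) and Prdm1, which encodes BLIMP-1 (1.2, adjusted p = 0.0326), rose too. Irf4, whose product binds DNA together with BATF, was at 113.5 ± 21.4 and 106 ± 12.8 CPM and did not pass (log2 fold change 0.10, adjusted p = 0.691). Without aged replicate 3, young replicate 3 or young replicate 4, 1 of the 7 was called.

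Of 14 surface and secreted products of tissue Tregs, 5 were higher and 0 lower in edgeR (13 and 0 at an unadjusted p under 0.05, where 17.6% of all genes tested were higher), with a median log2 fold change of 0.89. Itgae, the CD103 integrin that binds E-cadherin, rose from 48.6 ± 11.2 to 180 ± 19.1 CPM (log2 fold change 1.89, edgeR adjusted p = 0.000898). Tigit, an inhibitory receptor, rose from 54.5 ± 13.7 to 162 ± 22.5 CPM (1.58, adjusted p = 0.00162). Fgl2 (1.23), Icos (0.92) and Tnfrsf9 (0.81) were the other genes called. All 14 estimates were positive. The count was 10 without young replicate 2, 3 without aged replicate 3 or young replicate 1, 3 or 4, and 8 with DESeq2 or with no filter on low counts.

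All 8 genes of resting lymphoid Tregs were lower in aged Tregs in edgeR. Their median log2 fold change was -1.14, and 6.94% of all genes tested were called lower. Lef1 fell from 110 ± 9.17 to 50.2 ± 3.34 CPM (-1.13, edgeR adjusted p = 0.000617) and Satb1, which organises chromatin in T cells, from 230 ± 15.1 to 85.3 ± 18.1 CPM (-1.43, adjusted p = 0.00114). Other genes of the list include Ccr7, Tcf7, Bach2, S1pr1 and Klf2, which guide cells through lymphoid organs or hold them at rest. Without aged replicate 3, 5 of the 8 were called.

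The partners of each gene were taken in turn. Their counts are to be read against the same shares of all genes tested, 9.8% higher and 6.94% lower in edgeR. At an unadjusted p under 0.05 those shares were 17.6% and 15.1%. Of the EGF family, 7 of 12 listed ligands, receptors and sheddases were tested, with 1 higher and 0 lower in edgeR and in DESeq2, 2 higher and 1 lower at an unadjusted p under 0.05, and a median of -0.19. Betacellulin (Btc), the next coding gene after Areg on chromosome 5, was the one called. It stood at 1.84, 3.02 and 1.40 CPM in aged and at 0.524, 0.140, 0.316 and 0.0717 CPM in young replicates, a log2 fold change of 2.99 (SE 0.544, edgeR adjusted p = 0.00911). Its young libraries held 1 to 6 counts and its aged libraries 15 to 30. Egfr, the receptor of amphiregulin, was below the filter on low counts, at 0.471 CPM in aged and 0.266 CPM in young Tregs.

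Of IL-33 receptor signalling, 10 of 11 genes were tested, with 1 higher and 0 lower in edgeR and a median of -0.01. At an unadjusted p under 0.05, 1 was higher and 3 were lower, and DESeq2 called 1 higher and 1 lower, as did edgeR without aged replicate 1. Sigirr, an inhibitory receptor of the family, rose from 112 ± 18.1 to 161 ± 9.67 CPM (0.52, edgeR adjusted p = 0.0305). Its call was lost in 5 of the 7 fits with 1 library left out, those without aged replicate 2 or 3 or young replicate 1, 3 or 4. Il1rap, the chain that pairs with ST2, did not pass (13.1 ± 2.20 and 11.8 ± 3.11 CPM in young and aged, -0.15, adjusted p = 0.659). Il33 itself was below the filter, at 0.255 CPM in aged and 0.246 CPM in young Tregs.

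Of 11 listed genes of opioid peptides, their receptors and processing enzymes, 3 were tested, with 1 higher and 0 lower in edgeR, in DESeq2 and at an unadjusted p under 0.05, and a median of 0.16. The one called was Cpe, a carboxypeptidase that trims peptide precursors, at 6.21 ± 1.32 CPM in aged and 3.12 ± 0.522 CPM in young Tregs (0.99, edgeR adjusted p = 0.0222). The call was lost without aged replicate 2 or 3 or young replicate 1, 3 or 4. Oprd1, the delta opioid receptor, stood at 0.864 and 0.419 CPM, below the filter, with 22 of its counts in aged replicate 1.

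Of 9 tested genes of BATF partners and AP-1, 1 was higher and 2 lower in edgeR, with a median of -0.37. The same counts came at an unadjusted p under 0.05 and in DESeq2, where 11 were tested. Over all genes tested, edgeR called 9.8% higher and 6.94% lower. Fosl2 rose from 9.19 ± 2.55 to 27.8 ± 5.04 CPM (1.6, edgeR adjusted p = 0.00364). Jun (-1.65, adjusted p = 0.0199) and Fos (-1.71, adjusted p = 0.0496), immediate-early genes of cell stimulation, fell, and Junb, at 390 ± 220 and 582 ± 181 CPM in aged and young, did not pass (-0.58, adjusted p = 0.353). Without aged replicate 2 or 3 or young replicate 1 or 4, 1 gene of the list was called.

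Of 14 clock genes and competitors of NFIL3, 6 were higher and 3 lower in edgeR and in DESeq2, with a median of 0.39. At an unadjusted p under 0.05, 7 were higher and 3 lower. Over all genes tested, edgeR called 9.8% higher and 6.94% lower. Dbp, which activates the sites that NFIL3 represses, fell from 11.3 ± 0.863 to 6.84 ± 0.760 CPM (-0.72, edgeR adjusted p = 0.0159), and Cry1 fell from 29.1 ± 1.57 to 15.99 ± 0.920 CPM (-0.86, adjusted p = 0.00194). Tef, which binds the same letters as Dbp, rose from 44.8 ± 2.70 to 64.4 ± 6.63 CPM (0.52, adjusted p = 0.0106), and Nr1d2 rose from 38.4 ± 6.78 to 67.0 ± 6.42 CPM (0.80, adjusted p = 0.00861). The hour of collection is not given in the sources used here. Without aged replicate 3 or young replicate 4, 5 of the 14 were called.

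Of 18 tested partners and lipid targets of PPARG, 1 was higher and 4 lower in edgeR, with a median of -0.24. At an unadjusted p under 0.05, 3 were higher and 7 lower, and DESeq2, which tested 20, called 1 higher and 6 lower. Dgat1, an enzyme of triglyceride synthesis, rose from 19.4 ± 2.79 to 41.8 ± 2.66 CPM (1.11, edgeR adjusted p = 0.00172). Among the genes that were lower were the partners Rxrb (-0.34, adjusted p = 0.0301) and Rxra (-0.41, adjusted p = 0.0449), and Cpt1a, which brings fatty acids into mitochondria (-0.69, adjusted p = 0.0437). The count of 5 became 1 to 3 without aged replicate 3 or any 1 young replicate, and 3 with no filter on low counts. Of KLRG1 ligands and phosphatases, 3 of 5 were tested and 0 were called in edgeR, 0 at an unadjusted p under 0.05 and 0 in DESeq2. Among them was Cdh1 (E-cadherin), a ligand of KLRG1, at 0.711 and 0.871 CPM in aged and young Tregs. All these lists together held 35 called genes among 91 tested, 18 higher and 17 lower, where 16.7% of all genes tested were called, 9.8% higher and 6.94% lower.

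**Figure D4:**
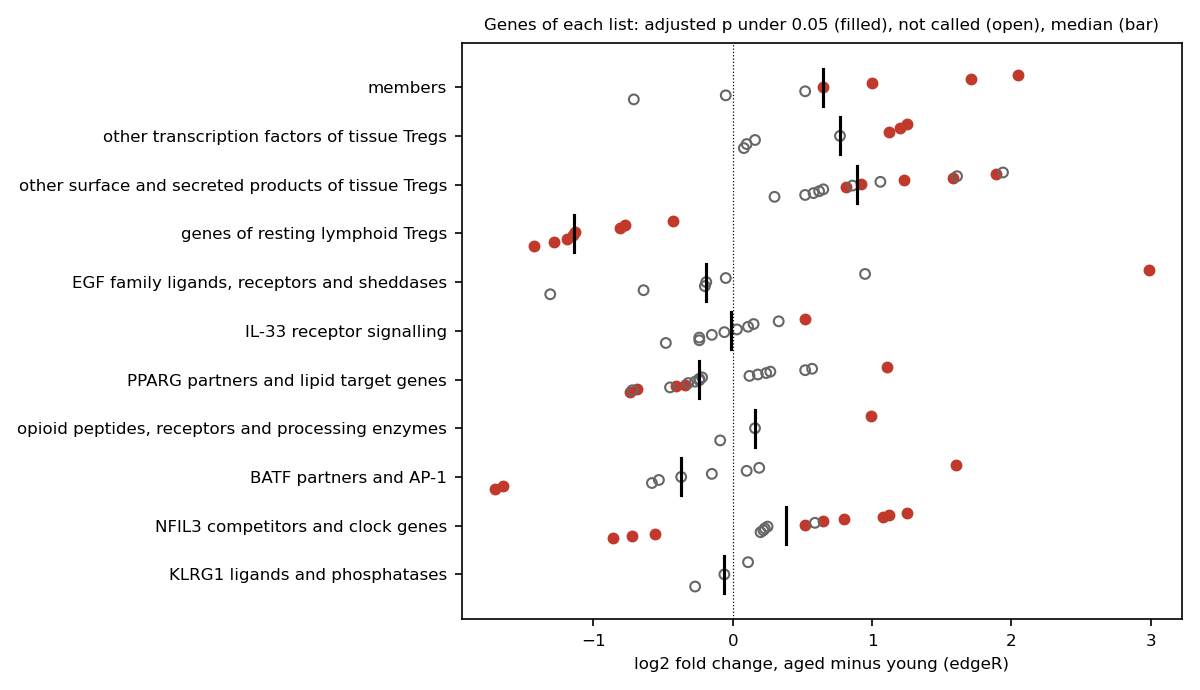
Log2 fold change, aged minus young, of each tested gene of the 7 genes and of the 10 lists around them (filled red, adjusted p under 0.05 in edgeR; open, not called; bar, median). The genes of resting lymphoid Tregs lie wholly below 0, and the surface and secreted products wholly above 0.

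Neighbours of the 7 genes on their chromosomes were read after their values were seen. The gene next to Il1rl1, Il18r1 (chr1:40465552-40500854), stood at 110 ± 11.4 CPM in aged and 69.6 ± 11.3 CPM in young Tregs (log2 fold change 0.66, edgeR adjusted p = 0.0169), and Il18rap (chr1:40515362-40551705) at 60.0 ± 10.6 and 29.1 ± 4.93 CPM (1.05, adjusted p = 0.00513). The products of both form the receptor of IL-18. On the other side of Il1rl1, Il1rl2 (-0.05, adjusted p = 0.909) and Il1r1 (-0.16, adjusted p = 0.753) did not pass. Near Batf, Jdp2 did not pass (0.14, adjusted p = 0.744), and Fos, the gene beyond it, was lower, as given above with the AP-1 genes. No coding neighbour tested next to Penk, Klrg1, Nfil3 or Pparg was called.

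The genes whose pattern over the 7 libraries was nearest to each gene were found among 11949 genes whose mean log2 CPM reached 1. Nearness was the root mean square difference of log2 CPM after each gene was centred on its own mean. Nearest to Areg were B4galnt4 (0.367) and Cysltr2 (0.376), to Penk Cox17 (0.133) and Pkdcc (0.168), to Il1rl1 Cd101 (0.0745) and Slc25a27 (0.134), and to Klrg1 Slc2a9 (0.0971) and Lrrc24 (0.123). Nearest to Batf were Lmntd2 (0.0364) and Immp2l (0.0929), to Nfil3 Sdf4 (0.0899) and Haghl (0.0981), and to Pparg Fcgrt (0.0633) and Ppdpf (0.0891). Areg had no gene as near as the others had on this measure, which was not divided by a gene's own spread. The root mean square about its own mean was 1.157 for Areg and 0.273 (Klrg1) to 0.886 (Penk) for the others.

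Several of the 7 genes are also made by other cells that an isolate may hold, and the markers of those cells are given beside them. Mast cells and basophils carry ST2, and their 9 markers summed to 30.2 to 51.3 CPM in aged and 38.4 to 79.1 CPM in young libraries, with 1 of 6 tested higher (Hdc) and 2 lower (Kit and Cpa3). CD8 T and NK cells carry KLRG1, and their markers summed to 77.8 to 133 CPM and 99.4 to 155 CPM, with 0 of 10 higher and 1 lower (Klrb1c) in edgeR, 0 and 2 in DESeq2 and at an unadjusted p under 0.05 in edgeR. Macrophages carry PPARG, and monocyte and macrophage markers summed to 475 to 701 CPM and 591 to 709 CPM, with 0 of 12 higher and 4 lower (Csf1r, Adgre1, Vcam1 and Mrc1) in edgeR, in DESeq2 and at an unadjusted p under 0.05. Neutrophil markers were higher in 3 of 9 (S100a8, S100a9 and Retnlg) in edgeR, in 7 of 9 at an unadjusted p under 0.05 and in 4 of 9 in DESeq2, with a median log2 fold change of 2.06. With 1 library left out, estimates ran from 0.75 to 2.56 for Ngp, 0.77 to 2.71 for Ltf and 1.58 to 2.86 for S100a9. Dendritic cell markers summed to 41.9 to 63.5 CPM and 60.1 to 79.4 CPM, with 1 of 7 higher and 3 lower.

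Treg markers summed to 2949 to 3448 CPM in aged and 2339 to 3799 CPM in young libraries, with 0 of 9 higher and 2 lower (Gpr83 and Lrrc32) in edgeR, against 3 higher and 3 lower at an unadjusted p under 0.05 and 0 higher and 3 lower in DESeq2. CD4 T cell markers summed to 1297 to 1526 CPM in aged and 1265 to 1627 CPM in young libraries. Of these 4 markers, 1 was higher (Cd3e) and 0 lower in edgeR, against 1 higher and 1 lower both at an unadjusted p under 0.05 and in DESeq2. B cell markers summed to 834 to 1547 CPM in aged and 1254 to 1895 CPM in young libraries, with 0 of 6 called in edgeR, 2 lower at an unadjusted p under 0.05 and 2 lower in DESeq2. Plasma cell markers summed to 569 to 1146 CPM and 228 to 1841 CPM, with 0 of 5 called in edgeR, 1 higher at an unadjusted p under 0.05 and 1 higher in DESeq2. Erythroid markers summed to 12690 to 156900 CPM and 12380 to 116100 CPM, with 0 of 6 called in edgeR, at an unadjusted p under 0.05 or in DESeq2. Platelet markers were higher without overlap (20.2 to 39.5 against 8.20 to 17.3 CPM, 1 of 4 called), and the sum of stromal and epithelial markers was lower without overlap (154 to 165 against 188 to 219 CPM). Of the 6 stromal and epithelial markers tested, however, 5 had a positive log2 fold change (median 0.66), with 1 higher and 1 lower (Pecam1) in edgeR and 3 higher and 1 lower in DESeq2. No marker was at 0 in every library. The part of these cells in the levels of the 7 genes was not tested.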

How the data were processed

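RNA-sequencing of 7 libraries of splenic CD4+CD25+ cells was used. The authors deposited raw read counts per Ensembl gene for each library, and a series table with a signal, which is each count divided by 1 size factor per library. The deposited signal multiplied by that factor equalled the count for 100% of genes, within 0.01 counts. The table's fold changes and p-values from the authors' own comparison were not used. The submitters' processing notes name mm10, and the aligner and counter are not given in the sources used here. Reads outside genes or shared between genes (13.1% to 20.9% per library) were not used. Positions and exon lengths are of GENCODE on GRCm38.

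Counts were normalized with TMM, filtered by filterByExpr with the age groups, and compared in edgeR 4.0.16 (R 4.3.3) by its quasi-likelihood test without covariates. Benjamini-Hochberg adjustment ran over 13904 genes. Standard errors come from the F statistic. Exact permutation tests are two-sided, and 0.5 was added to counts for ratios to Foxp3. The labels call the samples biological replicates and give no batch or date, and p-values measure only the spread between these samples. Alternatives were DESeq2 1.42.0, limma 3.58.1 (voom, and trend with prior count 2), RLE or library size only, no filter, a minimum of 10 counts per library, removal of haemoglobin, immunoglobulin and mitochondrial genes, removal of GC content and exon length trends, a block for the replicate number, omission of each library in turn and a log2 fold change of at least 1. Thinning to the smallest library was added after seeing the data. On simulated counts of 13692 genes, edgeR recovered 39 of 99 genes changed 2-fold and 87 of 97 changed 4-fold, with 7 false calls. The simulation changed few genes, while 16.7% were called in the data, and its libraries held no differences in cell content. These figures therefore do not carry over to the fit reported.

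The genes and the lists were chosen with earlier results of these data known. Named genes are the 7 genes, the 2 genes of each list with the smallest adjusted p in each direction among those called, genes that bind a product of the 7 directly, the 2 genes nearest to each in pattern, and markers. Other genes named were chosen after their values were seen. Some genes of the lists are counted but not reported by name here.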

Additional observations from a re-analysis of the deposited data

Results flagged for a closer look

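In young Tregs, replicate 2 stood far from the other 3 libraries in 4 of 19 sets of 4 young values. The sets were tested for an outlying library with Dixon's test at 95%, where chance gives about 1 in 20 per set. All 19 were read in the same 4 libraries, so they are not independent and that rate does not apply to their count. Batf was at 58.5 CPM in young replicate 2 and at 41.9 to 44.0 CPM in the others. Nfil3 was at 21.1 CPM, against 13.6 to 13.9 CPM. Summed CD4 T cell markers were at 1627 CPM, against 1265 to 1299 CPM, and summed plasma cell markers at 1841 CPM, against 228 to 408 CPM. Without this library the log2 fold change of Batf was 1.12 and that of Nfil3 was 0.70, and both passed the edgeR test (adjusted p = 0.00193 and 0.0266). The cause was not tested.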

How the results depend on the processing

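In the fit reported, 4 of the 7 genes were called. Il1rl1 alone was lost with voom (adjusted p = 0.0503), limma-trend (0.0530), RLE factors (0.0517) and library size only (0.0757), so that 3 were called there. DESeq2, no filter, leaving out mitochondrial, immunoglobulin and haemoglobin genes, and thinning each gave 4. Removing GC content and exon length trends gave 5, with Pparg lower, and at least 10 counts in every library gave 3, since Areg was then not tested. When a log2 fold change of 1 or more in either direction was required too, 2 of the 7 genes and 1016 of all genes were called, against 2327 in the fit reported. Leaving out 1 library gave 2 to 4 of the 7 genes, 1237 to 3058 of all genes (1262 without aged replicate 3, 1315, 1270 and 1237 without young replicate 1, 3 or 4, and 3058 without aged replicate 1) and 18 to 34 called genes of the lists, against 35 in the fit reported (18 without aged replicate 3, 19 and 21 without young replicate 1 or 4). The count of 2 came without young replicate 1 or young replicate 4. Klrg1 changed sign without aged replicate 2 (0.03), young replicate 1 (0.00) or young replicate 2 (0.09), and lay between -0.21 and 0.09 over these fits. Of the calls over all genes, 58.5% were higher, but 44.6% with GC content and length trends removed. With DESeq2 the lists gave 42 called genes. Same-numbered libraries deviated from their group means with correlations of -0.155, -0.272 and -0.119, and no library correlated best with its own number. Deviations within a group of 3 libraries sum to 0, so these values do not settle whether replicate numbers pair the samples. The fit with the replicate number as a block, over 6 libraries without young replicate 4, called 0 of the 7 genes and 279 of all genes, 71.3% of them higher, against 1237 for the same 6 libraries without a block. Depth limits genes of few counts, such as Areg in young libraries (6 to 31 counts) and Btc.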
